A study of Mus musculus with 48 samples.

Results

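Wild-type mice whose sires had eaten a low protein diet were compared with wild-type mice whose sires had eaten a control diet, in total RNA from the median lobe of the liver at 3 weeks of age. The labels define the groups, with no measured value used: every liver labelled wild-type, 8 arrays for each diet of the sire, or 16 of the 48 arrays of the series. Replicates 4 and 5 of the control group were near-identical arrays and were averaged as 1 sample, which left n = 7 offspring of control sires and n = 8 offspring of low-protein sires, 15 of 46 samples in all. The sires received their diet from 3 to 12 weeks of age, and only the diet of the sire separates the groups in the labels. The strain, the composition of the diets, the litters and the sex of each animal are not given in the sources used here, and animals of both sexes were taken. The other 4 groups carried the labels ATF7+/- and ATF7+/+, again with both diets of the sire; ATF7 is a stress-responsive transcription factor that can recruit histone methyltransferases to chromatin. Those groups entered the fit to share its estimate of the spread, and their levels and diet differences are set beside those of wild-type livers at the end.

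The liver is a main site of cholesterol and fatty acid synthesis. Cholesterol is built from acetyl-CoA through mevalonate, the isoprenoid farnesyl diphosphate, squalene and lanosterol, and nearly all enzymes of this chain are controlled by SREBP2, the product of Srebf2. SREBP2 is held in the endoplasmic reticulum by SCAP and INSIG proteins while sterols are plentiful and is released to the nucleus when they are scarce. Fatty acid synthesis from acetyl-CoA is controlled by the related SREBP1, by the sugar-responsive factor ChREBP (Mlxipl) and by the liver X receptors, and it rises at weaning, when milk fat gives way to solid food.

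Levels are log2 values after RMA normalization, so a difference of 1 is a 2-fold change. Differences are low protein minus control from limma, with the standard error (SE) of the fit, and the threshold was an adjusted p of 0.05 (Benjamini-Hochberg) over all 13542 genes tested. "Rose" and "fell" are written only of genes that passed. The submitters describe 8 independent experiments per group, and p-values measure only the spread between these samples. Array medians over the series lay between 5.89 and 6.12. Probe sets with no listed gene divided the arrays into set A and set B of unequal size, which no label names. Set A held 3 control and 3 low-protein samples, and set B held 4 and 5. Y-linked transcripts were high in 5 of 7 control samples and 5 of 8 low-protein samples (7.47 to 8.20, against 3.75 to 4.11 in the others). The probe set of Atf7 with the highest mean lay between 8.72 and 9.15 (median 8.90) in the control group and between 8.68 and 8.94 (median 8.80) in the low-protein group, a difference of -0.11 ± 0.08 (SE, adjusted p = 0.606); a second probe set gave -0.28 (adjusted p = 0.272).

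Offspring of low-protein sires had higher liver RNA for cholesterol synthesis, fatty acid synthesis and cell division. RNA was lower for the iron hormone hepcidin, the immunoglobulin transporter Pigr and the related receptor genes Lilrb4a and Lilr4b. Of the genes tested, 377 rose (2.78%) and 110 fell (0.812%), together 487 genes or 3.6%. Rises were larger than falls: the median size of the log2 difference was 0.51 among genes that rose and 0.33 among those that fell, against 0.09 over all genes tested. More than 2-fold changes were called for 53 genes upward and 4 downward. For 76 genes (0.561%) the ranges of the groups did not overlap, 61 of them with every low-protein sample above every control sample and 15 with every one below. The spread was wider in the control group, with a median SD of 0.21 against 0.17, and for 66.8% of genes the control SD was the larger. Without control replicate 8, whose list means for both sterol lists, for fatty acid synthesis and for the cell cycle were the lowest of its group, 219 genes passed. With the wild-type samples fitted alone, 139 passed (122 higher and 17 lower). After median centring of the arrays, 412 passed, 90.5% of them higher, against 77.4% as deposited.

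**Figure D1:**
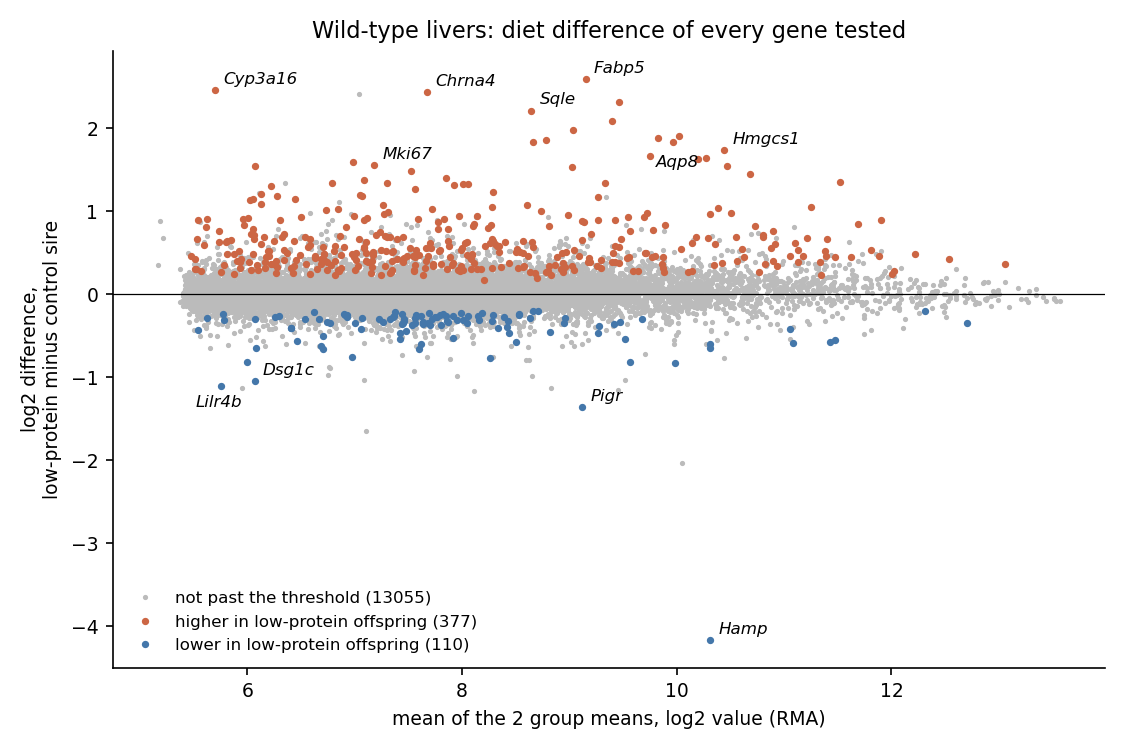
Each point is 1 of the 13542 genes tested, with the mean of both group means on the x axis (log2 value) and the log2 difference, low-protein minus control, on the y axis. The 377 genes that rose reach 2.59 (Fabp5), while Hamp, at -4.16, lies apart from the other 109 genes that fell.

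Cholesterol synthesis rose along almost its whole length. Of 10 enzymes tested between acetyl-CoA and lanosterol, 9 rose, with a median difference of 1.43 over the 10, against 0.00 over all genes. Of 9 enzymes tested between lanosterol and cholesterol, 8 rose, with a median of 1.16. No sterol enzyme fell. The mean of the first group of enzymes was higher in all 8 low-protein samples than in any control sample, and so was the mean of the second.

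Sqle and Idi1 showed the largest differences of these enzymes. Hmgcs1 encodes a synthase of the early mevalonate pathway, and its level lay between 8.88 and 10.29 (median 9.67) in the control group and between 11.02 and 11.57 (median 11.31) in the low-protein group. All 8 low-protein samples were above all 7 controls, a difference of 1.73 ± 0.22 (SE, adjusted p = 1.22e-06) or 3.32-fold. Sqle, the squalene epoxidase that catalyses the first oxygen-requiring step, lay between 6.88 and 8.65 (median 7.25) in the control group and between 9.16 and 10.03 (median 9.81) in the low-protein group. It rose by 2.21 ± 0.26 (SE, adjusted p = 4.44e-07), 4.63-fold, again without overlap. Idi1, the isopentenyl diphosphate isomerase, went from 7.40 to 9.89 (median 8.05) in controls and 10.05 to 10.80 (median 10.45) in low-protein offspring, a rise of 2.08 ± 0.32 (SE, adjusted p = 3.19e-05). Its highest control, the averaged replicates 4 and 5, was just under the lowest low-protein sample. Fdps, the farnesyl diphosphate synthase, rose by 1.64 ± 0.22 (SE, adjusted p = 1.91e-06), with values of 8.13 to 10.70 (median 9.33) in controls and 10.73 to 11.44 (median 11.06) in low-protein offspring. The mevalonate kinases and decarboxylase moved alike: Pmvk rose by 1.33 ± 0.16 (SE, adjusted p = 5.79e-07), and Mvd and Mvk by 1.33 and 0.91. Fdft1, which joins farnesyl units into squalene, rose by 0.83 ± 0.12 (SE, adjusted p = 2.35e-05), and the lanosterol synthase Lss by 1.53. Ggps1, whose product leaves the sterol branch for protein prenylation, was the member that did not pass (-0.01, adjusted p = 0.956).

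Below lanosterol, Cyp51, the lanosterol demethylase, lay between 7.15 and 9.10 (median 7.91) in the control group and between 9.53 and 10.33 (median 10.04) in the low-protein group. The ranges were separate and the difference was 1.98 ± 0.27 (SE, adjusted p = 5.03e-06). Msmo1, a sterol methyl oxidase that acts later on the chain, rose by 1.67 ± 0.22 (SE, adjusted p = 2.87e-06) without overlap. Nsdhl, which removes the oxidised methyl group, rose by 1.88 ± 0.24 (SE, adjusted p = 1.22e-06); its highest control (10.24) lay above the lowest low-protein sample (10.13), while the other 7 low-protein samples were above all controls. Dhcr7, the last enzyme before cholesterol on one branch, went from 7.99 to 9.27 (median 8.79) in controls and 9.54 to 10.42 (median 10.04) in low-protein offspring and rose by 1.34 ± 0.16 (SE, adjusted p = 5.79e-07). Hsd17b7 rose by 1.16 ± 0.20 (SE, adjusted p = 0.000175) and Tm7sf2, a sterol reductase, by 0.97. The smallest rises in this part of the pathway were those of Sc5d (0.53) and Ebp (0.38). Lbr, which shares the reductase step with Tm7sf2 and also anchors the nuclear lamina, did not pass (0.41, adjusted p = 0.119).

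The sterol result was as large within each array set. Within set A alone 9 of 10 and 8 of 9 enzymes passed, with medians of 1.46 and 1.11, where 15.6% of all genes passed. Within set B alone the same counts of 9 and 8 passed, with medians of 1.37 and 1.12, where 4.72% of all genes passed. With the array set as a block 9 of 10 and 9 of 9 passed, against 9.26% of all genes. Fitted on wild-type samples alone, 9 of 10 and 6 of 9 passed, beside 139 of all 13542 genes.

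A short promoter element, CCAAT, was found before these genes. In the 250 bases before their annotated starts (RefSeq, GRCm38.p6), 14 of the 17 sterol enzyme genes that rose had an entry, and all 14 held CCAAT on one strand or the other in at least 1 entry. It was found in 38.9% of the genes tested and in 33.8% of all promoters in the table. CCAAT is bound by the trimeric factor NF-Y, which is known to act beside SREBP2 at sterol genes. Among all 304 genes that rose and had an entry, 53.6% held it, and among those outside the sterol, fatty acid and cell cycle lists 48.7%; among the 83 that fell and had an entry, 31.3% did. The strict sterol response element TCACNCCAC was rarer: it occurred in 1 of the 14 sterol genes (Hmgcs1), in 1.32% of genes tested and in 1.05% of all promoters. The GC box GGGCGG, bound by Sp1, occurred in 13 of the 14, against 60.6% of genes tested, and the E-box CACGTG in 3 of 14, against 9.62%. The cyclic AMP response element TGACGTCA, to which factors of the ATF2 family can bind, occurred in 0 of the 14, in 5 of the 304 genes that rose and in 2 of the 83 that fell, against 2.8% of genes tested. Both strands were searched and matches are counted per gene. They describe these letters in these windows and not binding. The promoters of an early, a middle and a late enzyme are shown 5′ to 3′ on the strand of the gene, ending at the base before the start, with CCAAT or its reverse complement ATTGG in capitals. In Hmgcs1 the sterol response element is in capitals too, and it shares no base with a CCAAT box. The windows are chr13:119690101-119690350, plus strand for Hmgcs1, chr8:122443423-122443672, minus strand for Mvd and chr5:4104698-4104947, minus strand for Cyp51.
Hmgcs1: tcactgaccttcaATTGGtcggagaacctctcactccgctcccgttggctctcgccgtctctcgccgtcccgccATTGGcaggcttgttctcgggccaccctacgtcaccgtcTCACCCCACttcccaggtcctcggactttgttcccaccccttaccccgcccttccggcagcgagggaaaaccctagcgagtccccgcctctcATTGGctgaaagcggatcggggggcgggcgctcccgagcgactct
Mvd: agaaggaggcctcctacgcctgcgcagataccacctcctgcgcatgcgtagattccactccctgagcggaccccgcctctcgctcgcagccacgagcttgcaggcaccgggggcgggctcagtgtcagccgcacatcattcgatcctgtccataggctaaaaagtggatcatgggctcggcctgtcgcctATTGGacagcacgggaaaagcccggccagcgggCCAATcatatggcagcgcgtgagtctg
Cyp51: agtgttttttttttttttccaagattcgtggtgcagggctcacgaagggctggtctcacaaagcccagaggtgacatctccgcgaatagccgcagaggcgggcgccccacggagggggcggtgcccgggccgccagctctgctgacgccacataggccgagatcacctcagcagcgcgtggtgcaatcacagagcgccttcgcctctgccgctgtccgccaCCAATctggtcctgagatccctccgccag
Hmgcs1 holds 3 CCAAT boxes, the nearest starting 45 bases before the start, beside 1 sterol response element. Mvd holds 2, at 60 and 27 bases, and Cyp51 holds 1, at 29 bases.

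The sensors and regulators of the pathway moved less than its enzymes. Of 12 tested, 4 rose and 0 fell, with a median of 0.25. Srebf2, the gene of SREBP2 itself, lay between 8.07 and 8.68 (median 8.23) in the control group and between 8.58 and 9.04 (median 8.86) in the low-protein group. The groups overlapped, 5 of 8 low-protein samples lay above the highest control, and the difference was 0.50 ± 0.09 (SE, adjusted p = 0.00111). Scap, the escort of SREBP2, rose by 0.45 ± 0.11 (SE, adjusted p = 0.0103). Stard4, a sterol carrier that is itself an SREBP2 target, rose by 0.63 ± 0.14 (SE, adjusted p = 0.00437). Insig1, which retains SCAP when sterols are abundant, rose by 0.84 ± 0.22 (SE, adjusted p = 0.022), not past the threshold without control replicates 2 or 8 (adjusted p up to 0.0993). Srebf1, the gene of SREBP1, gave -0.11 (adjusted p = 0.872), and Npc1, which exports lysosomal cholesterol, gave -0.04 (adjusted p = 0.914).

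**Figure D2:**
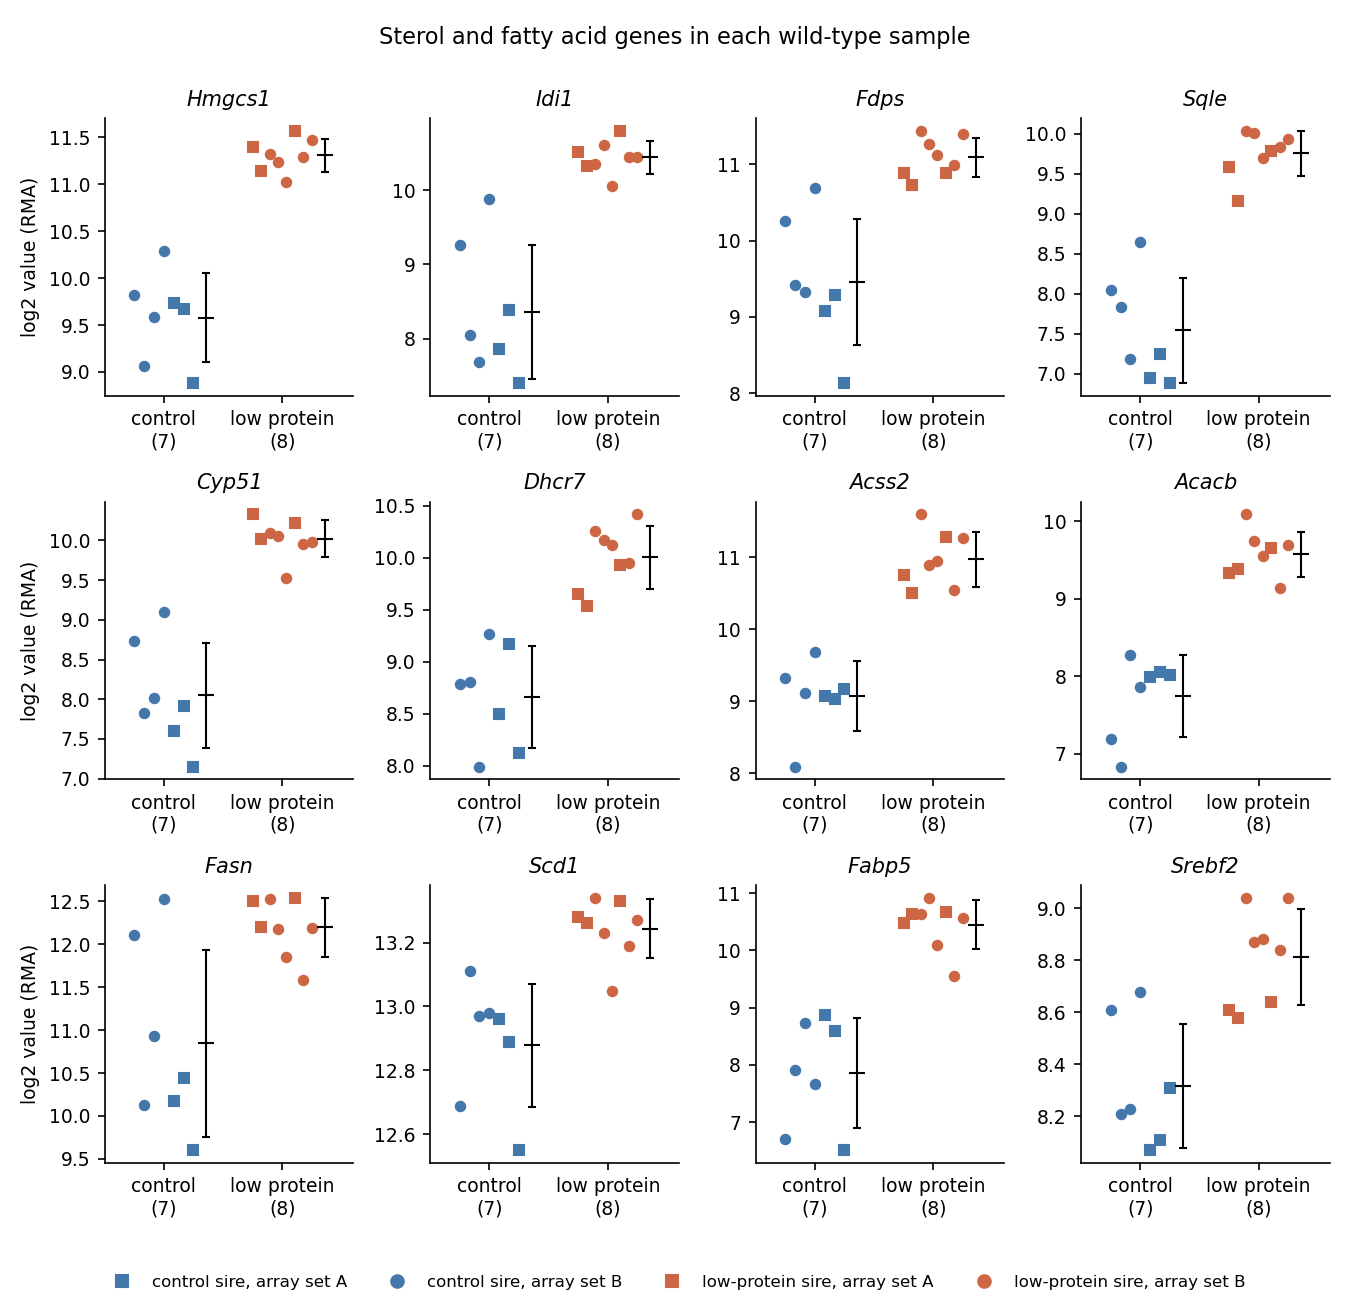
Log2 values of 12 sterol and fatty acid genes in each wild-type sample, with squares for array set A and circles for set B; bars give the mean and SD of the 7 control and 8 low-protein samples. Hmgcs1, Idi1, Fdps, Sqle, Cyp51, Dhcr7, Acss2, Acacb and Fabp5 show no overlap between groups, while Fasn, Scd1 and Srebf2 overlap.

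Fatty acid synthesis rose as a group. Of 21 genes tested 16 rose and 0 fell, all 21 differences were above 0, and the median was 0.88. Acss2 makes cytosolic acetyl-CoA from acetate, and it lay between 8.09 and 9.68 (median 9.11) in the control group and between 10.50 and 11.60 (median 10.93) in the low-protein group. Every low-protein sample exceeded every control, and the difference was 1.91 ± 0.24 (SE, adjusted p = 9.73e-07). Acacb, the acetyl-CoA carboxylase whose malonyl-CoA also restrains fatty acid oxidation, lay between 6.83 and 8.27 (median 7.99) in the control group and between 9.14 and 10.09 (median 9.61) in the low-protein group; it rose by 1.83 ± 0.27 (SE, adjusted p = 1.35e-05), with no overlap. Its partner Acaca, which supplies malonyl-CoA for chain building, rose by 0.96 ± 0.27 (SE, adjusted p = 0.0314), not past the threshold without control replicate 8 or low-protein replicates 1, 3 or 6 (adjusted p up to 0.116), and a second probe set of Acaca gave 1.03 (adjusted p = 0.0624). Fasn, the fatty acid synthase, lay between 9.60 and 12.53 (median 10.44) in the control group and between 11.58 and 12.54 (median 12.20) in the low-protein group. Control replicate 1 and the averaged replicates 4 and 5 reached the low-protein range, and the difference was 1.35 ± 0.31 (SE, adjusted p = 0.00779).

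The products of Fasn are lengthened and desaturated by elongases and desaturases. Elovl6, which takes palmitate to stearate, went from 8.57 to 11.21 (median 10.01) in controls and 10.87 to 12.08 (median 11.36) in low-protein offspring and rose by 1.45 ± 0.28 (SE, adjusted p = 0.00137). Elovl5, an elongase of polyunsaturated fatty acids, separated the groups at 10.95 to 11.94 (median 11.60) in controls and 12.10 to 12.62 (median 12.37) in low-protein offspring and rose by 0.90 ± 0.13 (SE, adjusted p = 2.18e-05). Scd1, the main desaturase of liver, was at 12.55 to 13.11 (median 12.96) in controls and 13.05 to 13.34 (median 13.27) in low-protein offspring and rose by 0.37 ± 0.07 (SE, adjusted p = 0.000675). The other members that rose are named here after their values were seen: Acly (1.54), which cleaves citrate to acetyl-CoA, the citrate carrier Slc25a1 (0.46), the NADPH sources Me1 (0.98) and Pgd (0.88), the lipogenic regulator Thrsp (1.62), Pnpla3 (1.49), Fads1 (0.48), Elovl2 (0.28) and Tecr (0.51). Fads2 (0.30), Elovl1 (0.29), Elovl3 (0.88), Hacd3 (0.02) and Mid1ip1 (0.07) did not pass.

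These rises depended more on single samples than those of sterol synthesis. Without control replicate 8, 10 of the 21 fatty acid genes passed, beside 219 of all 13542 genes. In wild-type samples alone 8 passed, beside 139 of all genes. Fasn differed by 2.34 within set A (adjusted p = 1.71e-05) and by 0.64 within set B (adjusted p = 0.263), while Acss2 and Acacb passed in each set.

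Sugar handling and triglyceride assembly moved in part. Of 17 genes tested, 2 rose and 0 fell, with a median of 0.07. In wild-type samples alone, where 139 of all 13542 genes passed, 0 of the 17 did. Pklr, the liver pyruvate kinase and a ChREBP target, lay between 9.36 and 11.69 (median 10.76) in the control group and between 11.26 and 12.09 (median 11.74) in the low-protein group, a rise of 1.05 ± 0.21 (SE, adjusted p = 0.0017). It was 1.59 within set A and 0.66 within set B (adjusted p = 0.126). Khk, the ketohexokinase that commits fructose to metabolism, was higher in every low-protein sample than in any control (9.82 to 10.88 (median 10.71) in controls and 10.90 to 11.53 (median 11.16) in low-protein offspring) and rose by 0.56 ± 0.12 (SE, adjusted p = 0.00478). Mlxipl itself gave -0.08 ± 0.15 (SE, adjusted p = 0.878).

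The catabolic and export arms of lipid metabolism held few calls. Counts at an unadjusted p under 0.05, given here and below for lists without calls, stand against 2153 of all 13542 genes tested, or 15.9%. Of 30 genes of fatty acid oxidation and ketogenesis 0 passed in limma (6 at an unadjusted p under 0.05, median 0.11), and Cpt1a, the gate of mitochondrial import, gave -0.16 ± 0.13 (SE, adjusted p = 0.612). Gluconeogenesis had 1 call among 14 genes, the glycogen phosphorylase Pygl (0.55 ± 0.16 (SE, adjusted p = 0.0403)), not past the threshold in 6 of the 15 fits that left out 1 sample; Pck1 gave -0.23 (adjusted p = 0.724) and G6pc 0.52 (adjusted p = 0.106). Sterol efflux had 1 call among 11, the lysosomal lipase Lipa (0.46 ± 0.10 (SE, adjusted p = 0.00227)), which was 0.86 within set A and 0.19 within set B. The sterol exporters Abcg5 and Abcg8 gave -0.21 (adjusted p = 0.579) and -0.11 (adjusted p = 0.826). Among 16 apolipoprotein and assembly genes Mttp, which loads lipid onto apolipoprotein B, rose by 0.36 ± 0.09 (SE, adjusted p = 0.0103), while Apob gave 0.00 (adjusted p = 0.981).

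Bile acid synthesis held a gene with values of opposite sign in the array sets. Of 17 genes tested 0 passed in limma (4 at an unadjusted p under 0.05). Cyp8b1, the sterol 12-alpha-hydroxylase that sets the share of cholic acid, lay between 7.75 and 9.90 (median 8.41) in the control group, while the low-protein group had a lowest value of 8.31 and a median of 10.08, a difference of 1.17 ± 0.36 (SE, adjusted p = 0.0598). Within set B it was 7.75 to 8.41 in the 4 controls and at least 10.02 in the 5 low-protein samples, a difference of 2.50 (adjusted p = 2.48e-05). Within set A it was 9.76 to 9.90 in controls and 8.31 to 9.68 in low-protein samples, a difference of -0.79 (adjusted p = 0.15). Cyp7a1, the rate-limiting enzyme of the same pathway, gave -0.73 ± 0.59 (SE, adjusted p = 0.619).

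Several of the largest rises were outside these pathways. Fabp5, an intracellular fatty acid carrier, had the largest rise of all genes: it lay between 6.51 and 8.87 (median 7.92) in the control group and between 9.56 and 10.92 (median 10.61) in the low-protein group, a difference of 2.59 ± 0.31 (SE, adjusted p = 5.79e-07), 6.03-fold. A second probe set of Fabp5 gave 2.63, and the difference was 2.61 in both sets. Chrna4, a nicotinic acetylcholine receptor subunit, lay between 5.97 and 6.87 (median 6.46) in the control group and between 7.42 and 9.79 (median 9.03) in the low-protein group. The groups were separate and the difference was 2.44 ± 0.50 (SE, adjusted p = 0.00221). Rdh11, a retinal reductase, went from 6.81 to 8.72 (median 7.98) in controls and 9.40 to 10.13 (median 9.69) in low-protein offspring and rose by 1.85 ± 0.20 (SE, adjusted p = 5.63e-08). Aqp8, a water and hydrogen peroxide channel of the hepatocyte, went from 7.64 to 9.67 (median 9.38) in controls and 10.10 to 11.82 (median 10.79) in low-protein offspring and rose by 1.83 ± 0.26 (SE, adjusted p = 6.81e-06). Rps23rg1, a retrogene derived from the ribosomal protein gene Rps23, had the smallest p of all genes: 6.37 to 7.02 (median 6.66) in controls and 7.37 to 8.75 (median 7.89) in low-protein offspring, a rise of 1.34 ± 0.14 (SE, adjusted p = 2.43e-08). The carboxylesterases Ces2e and Ces2g were each separate between groups and rose by 1.03 ± 0.13 (SE, adjusted p = 7.33e-07) and 0.89 ± 0.11 (SE, adjusted p = 5.9e-07).

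Other large rises were less even. Akr1c18, a steroid reductase of the aldo-keto reductase family, rose by 2.32 ± 0.52 (SE, adjusted p = 0.00528), but its highest control, at 10.52, was within the low-protein range of 9.79 to 11.37. Cyp3a16, a cytochrome P450 typical of young liver, lay between 3.95 and 5.75 (median 4.34) in the control group and between 4.73 and 9.40 (median 6.80) in the low-protein group. The control median was under the filter cut of 5.46, which applied to the mean over all arrays of the series. The difference was 2.45 ± 0.68 (SE, adjusted p = 0.031), not past the threshold in 6 of the 15 fits that left out 1 sample. Low-protein replicates 6, 7 and 8, with low Y-linked transcripts, had Cyp3a16 at 9.01, 7.41 and 9.40, against 4.73 to 7.60 in the others. The controls with low Y-linked transcripts, replicate 8 and the averaged replicates 4 and 5, were at 5.75 and 4.73, against 3.95 to 4.42. Among 29 cytochromes P450 of families 1 to 3 tested, Cyp2c55 also rose (1.19 ± 0.29 (SE, adjusted p = 0.0115)) and Cyp3a13 fell (-0.60 ± 0.16 (SE, adjusted p = 0.0209)). Cyp2c55 was not past the threshold without control replicate 8 (adjusted p = 0.0627), and Cyp3a13 was not past the threshold without control replicate 8 or low-protein replicate 3 (adjusted p up to 0.102). Rhbg, an ammonium transporter of the hepatocytes around the central vein, rose by 0.81 ± 0.17 (SE, adjusted p = 0.00266), the single call among 16 pericentral genes; Glul, the glutamine synthetase of the same cells, gave 0.73 ± 0.25 (SE, adjusted p = 0.1). Of 11 periportal genes 0 passed in limma (3 at an unadjusted p under 0.05, median -0.12). Probe sets cannot always tell close relatives apart. Cross-hybridisation within the Ces2, Cyp3a and Akr1c families, between Rps23rg1 and Rps23, or between Lilrb4a and Lilr4b was not tested.

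Cell division genes rose together. Of 31 tested 19 rose and 0 fell, 30 differences were above 0 and the median was 0.72. Mki67, a nuclear protein of dividing cells, lay between 5.24 and 8.04 (median 6.61) in the control group and between 7.21 and 8.46 (median 8.03) in the low-protein group. Control replicate 2, at the top of its group, reached the low-protein range, and the difference was 1.55 ± 0.32 (SE, adjusted p = 0.00227). Ccna2, the cyclin of S phase, lay between 5.18 and 8.07 (median 6.26) in the control group and between 7.20 and 8.42 (median 7.83) in the low-protein group and rose by 1.59 ± 0.33 (SE, adjusted p = 0.00244). Top2a, which untangles replicated DNA, rose by 1.21 ± 0.25 (SE, adjusted p = 0.00248), and the mitotic kinesin Kif11 by 1.19 ± 0.25 (SE, adjusted p = 0.00241). Nusap1, a spindle protein, rose by 1.14 ± 0.24 (SE, adjusted p = 0.00318), and Cdk1, the kinase that drives entry into mitosis, by 0.94 ± 0.24 (SE, adjusted p = 0.0159), not past the threshold without control replicate 8 (adjusted p = 0.0651). In the control group the list mean lay between -1.03 and 0.60 relative to the mean of the series, with replicate 2 highest, and in the low-protein group between 0.02 and 0.95. The size was like in both sets, 0.87 within set A and 0.79 within set B, but the calls were not. Within set A alone 19 of 31 passed, where 15.6% of all genes passed. Within set B alone 1 passed, where 4.72% of all genes did. Without control replicate 8, 8 passed, beside 219 of all 13542 genes, and without replicate 2, 23, beside 589. Wild-type samples alone gave 4, beside 139 of all genes.

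CCAAT was frequent before these genes as well. Of 15 cell cycle genes that rose and had a promoter entry, 12 held it. The cell cycle homology region TTTGAA occurred in 6 of the 15, against 1396 of the 10761 tested genes with an entry, and the E2F site TTTCGCGC in 3, against 0.576%. The promoters of a mitotic cyclin and of Top2a are shown as above, GRCm38.p6, chr9:70421555-70421804, minus strand for Ccnb2 and chr11:99024190-99024439, minus strand for Top2a, with CCAAT or ATTGG in capitals.
Ccnb2: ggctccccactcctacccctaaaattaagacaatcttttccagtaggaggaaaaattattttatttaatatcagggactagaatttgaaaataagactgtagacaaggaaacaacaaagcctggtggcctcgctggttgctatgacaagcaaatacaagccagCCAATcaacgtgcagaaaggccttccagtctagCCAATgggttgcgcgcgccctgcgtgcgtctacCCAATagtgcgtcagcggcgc
Top2a: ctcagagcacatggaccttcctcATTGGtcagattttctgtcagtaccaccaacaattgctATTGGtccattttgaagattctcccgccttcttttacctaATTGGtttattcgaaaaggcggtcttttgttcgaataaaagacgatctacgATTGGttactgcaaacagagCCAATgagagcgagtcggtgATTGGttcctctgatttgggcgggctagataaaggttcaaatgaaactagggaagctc
Ccnb2 holds 3 such boxes, at 87, 54 and 21 bases before the start. Top2a holds 6, from 227 to 58 bases before the start. Ccnb2 rose by 1.39.

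Genes of the fetal liver and of the imprinted growth network were higher by a smaller margin. Of 19 tested 4 rose and 0 fell, with a median of 0.24, and the list mean of each of the 8 low-protein samples was above the highest control. Mest, an imprinted gene expressed from the paternal allele, lay between 5.88 and 7.49 (median 6.73) in the control group and between 7.44 and 8.31 (median 7.72) in the low-protein group; 7 of 8 low-protein samples exceeded the highest control, and the difference was 1.07 ± 0.20 (SE, adjusted p = 0.000801). Gpc3, a glypican of fetal liver, went from 6.81 to 8.06 (median 7.75) in controls and 8.05 to 9.48 (median 8.93) in low-protein offspring and rose by 1.23 ± 0.33 (SE, adjusted p = 0.0224), not past the threshold without control replicate 3 (adjusted p = 0.0545). Igf2bp3, a fetal RNA-binding protein, was separate between groups at 7.06 to 7.49 (median 7.27) in controls and 7.59 to 7.88 (median 7.71) in low-protein offspring and rose by 0.46 ± 0.09 (SE, adjusted p = 0.00223). Ndn rose by 0.39 ± 0.09 (SE, adjusted p = 0.00829). Igf2 and Afp, the fetal growth factor and serum protein, gave 0.35 ± 0.15 (SE, adjusted p = 0.214) and 0.37 ± 0.12 (SE, adjusted p = 0.08).

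**Figure D3:**
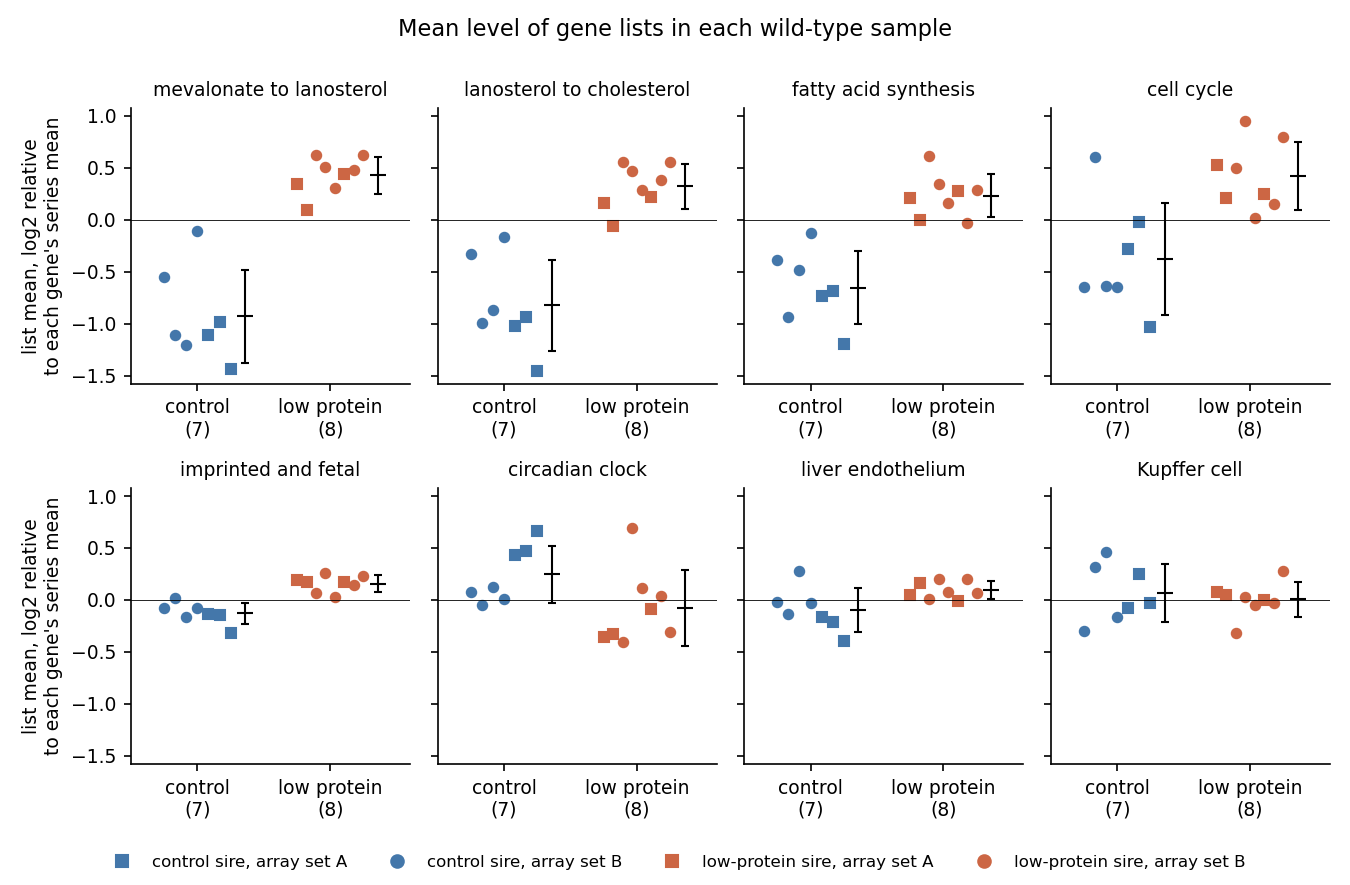
Mean log2 level of 8 gene lists in each wild-type sample, relative to each gene's mean over the series, with squares for array set A and circles for set B; bars give the mean and SD. Both sterol lists, fatty acid synthesis and the imprinted and fetal list have all 8 low-protein samples above all controls, cell cycle overlaps through control replicate 2, and the clock list is divided by array set within the controls.

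The largest fall was that of Hamp, the gene of hepcidin, the hormone that blocks iron export into blood. It lay between 10.94 and 12.81 (median 12.68) in the control group and between 4.18 and 11.84 (median 8.11) in the low-protein group. Low-protein replicates 3, 5 and 7 lay between 10.81 and 11.84, within or near the control range, and replicates 1, 2 and 6, those of set A, between 4.18 and 6.84. The difference was -4.16 ± 1.09 (SE, adjusted p = 0.0213), -7.36 within set A and -2.21 within set B (adjusted p = 0.21). It was not past the threshold without control replicate 8 or low-protein replicates 1 or 2 (adjusted p up to 0.0591), nor in wild-type samples alone (adjusted p = 0.0595). The other 19 iron genes tested did not pass, among them Tfrc, the transferrin receptor (0.34 ± 0.30 (SE, adjusted p = 0.663)).

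Other genes fell with less spread than Hamp. Pigr, which carries dimeric IgA across epithelia, lay between 9.11 and 10.51 (median 9.66) in the control group and between 7.75 and 9.02 (median 8.50) in the low-protein group. The groups were separate, with a difference of -1.36 ± 0.32 (SE, adjusted p = 0.00984), or 38.9% of the control level. Lilrb4a, an inhibitory receptor of myeloid cells, was separate at 6.92 to 7.89 (median 7.37) in controls and 6.31 to 6.86 (median 6.64) in low-protein offspring and fell, with a difference of -0.76 ± 0.15 (SE, adjusted p = 0.00184), and its close relative Lilr4b gave -1.10 ± 0.22 (SE, adjusted p = 0.00214). Dsg1c, a desmoglein of cell junctions, was separate at 5.97 to 7.11 (median 6.40) in controls and 5.16 to 5.95 (median 5.56) in low-protein offspring and gave -1.05 ± 0.23 (SE, adjusted p = 0.00364). A probe set shared by Dsg1a, Dsg1b and Dsg1c gave -1.14. Haptoglobin, Hp, which binds free haemoglobin, gave -0.34 ± 0.07 (SE, adjusted p = 0.00194), the single call among 22 acute phase genes. Abcc3, the exporter of conjugates into blood, went from 10.12 to 10.86 (median 10.39) in controls and 8.92 to 10.03 (median 9.64) in low-protein offspring without overlap and gave -0.83 ± 0.22 (SE, adjusted p = 0.0257).

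The other large falls were spread over genes of several kinds. Gpt2, the mitochondrial alanine aminotransferase, gave -0.65 ± 0.18 (SE, adjusted p = 0.0276), and Etnppl, which breaks down phosphoethanolamine, -0.81 ± 0.23 (SE, adjusted p = 0.033). Mthfd1l, a mitochondrial folate enzyme, gave -0.66 ± 0.18 (SE, adjusted p = 0.0276). The oxysterol-binding gene Osbpl3 gave -0.81 ± 0.22 (SE, adjusted p = 0.0268), with controls from 5.50 to 7.60 and low-protein samples from 5.37 to 5.70. Ildr2 gave -0.66 ± 0.16 (SE, adjusted p = 0.0105), the long non-coding RNA A330023F24Rik -0.65 ± 0.13 (SE, adjusted p = 0.00221) and the antisense transcript Hnf4aos -0.63 ± 0.18 (SE, adjusted p = 0.0403). Etnppl, Gpt2, Mthfd1l and Hnf4aos did not pass in 8, 6, 5 and 10 of the 15 fits that left out 1 sample. Osbpl3 was not past the threshold without control replicates 2, 6 or 7 (adjusted p up to 0.101), Abcc3 was not past the threshold without control replicates 6 or 8 or low-protein replicates 1 or 2 (adjusted p up to 0.0667) and Ildr2 was not past the threshold without control replicate 8 (adjusted p = 0.0574). Dsg1c and Lilrb4a passed in each array set alone.

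**Figure D4:**
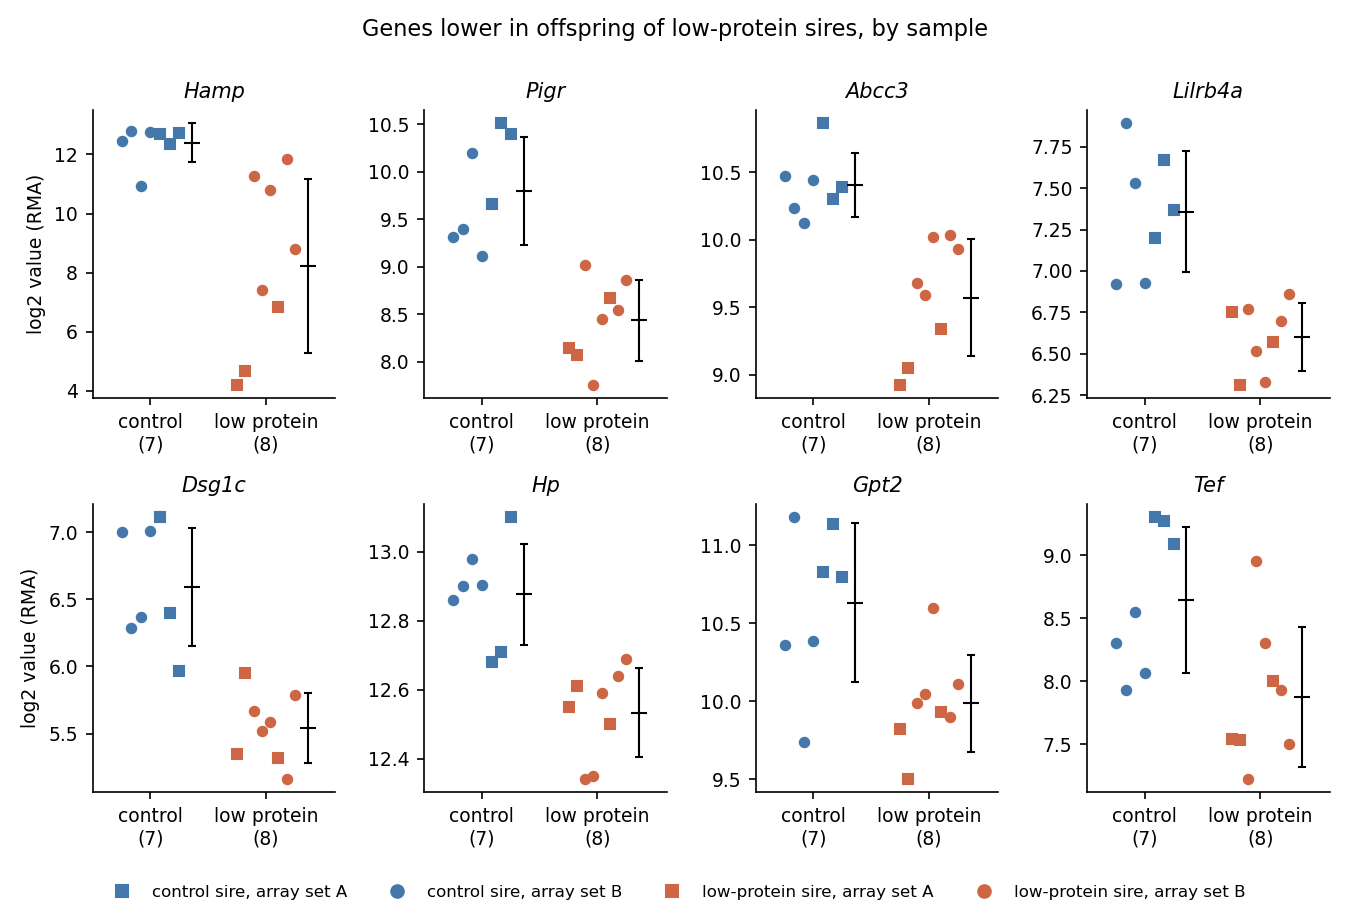
Log2 values of 8 genes that fell, in each wild-type sample, with squares for array set A and circles for set B; bars give the mean and SD. Pigr, Abcc3, Lilrb4a and Dsg1c show no overlap, and the low-protein samples of Hamp run from 4.18 to 11.84.

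Amino acid and stress responses showed few calls. Of 7 urea cycle genes 0 passed in limma (1 at an unadjusted p under 0.05, median -0.10), with Cps1 at -0.09 ± 0.08 (SE, adjusted p = 0.67). Of 24 genes of amino acid breakdown 2 fell: Cth, which cleaves cystathionine to cysteine (-0.42 ± 0.12 (SE, adjusted p = 0.032)), and the branched-chain aminotransferase Bcat2 (-0.26 ± 0.07 (SE, adjusted p = 0.0215)). Cth was not past the threshold in 6 of the 15 fits that left out 1 sample, and Bcat2 not past the threshold without control replicates 6, 7 or 8 or low-protein replicate 8 (adjusted p up to 0.0723). Of 18 genes of the ATF4 response to amino acid shortage 0 passed (4 at an unadjusted p under 0.05, median -0.08), with Asns at -0.51 ± 0.49 (SE, adjusted p = 0.684) and a control range of 5.67 to 10.29. Of 19 endoplasmic reticulum chaperone genes 0 passed (1 at an unadjusted p under 0.05); Hspa5 gave 0.53 within set A (adjusted p = 0.0336) and -0.51 within set B (adjusted p = 0.0258). Of 12 heat shock genes the collagen chaperone Serpinh1 rose (0.34 ± 0.09 (SE, adjusted p = 0.0153)). Of 18 immediate early genes 0 passed (2 at an unadjusted p under 0.05), with Fos at -0.11 (adjusted p = 0.712) and Egr1 at 0.12 (adjusted p = 0.928). Among 14 genes of NRF2 and glutathione, Gstm2 rose (0.50 ± 0.14 (SE, adjusted p = 0.0364); not past the threshold in 9 of the 15 fits that left out 1 sample) and Txnrd1 fell (-0.32 ± 0.08 (SE, adjusted p = 0.0216); not past the threshold without control replicate 2 (adjusted p = 0.053)), while Nqo1 gave -0.13 (adjusted p = 0.862). Of 18 interferon-stimulated genes Ddx58 rose (0.33 ± 0.09 (SE, adjusted p = 0.0383); not past the threshold in 9 of the 15 fits that left out 1 sample). Of 24 coagulation and complement genes 0 passed (1 at an unadjusted p under 0.05), and of 18 genes of ATF7, ATF2 and histone H3K9 methylation 0 passed (1 at an unadjusted p under 0.05, median -0.05).

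Genes of growth hormone, STAT5 and IGF1 signalling did not pass. Of 16 tested 0 passed in limma (9 at an unadjusted p under 0.05, against 15.9% of all genes), 12 differences were above 0 and the median was 0.34. Igf1, the growth hormone target that circulates as a growth factor, lay between 11.05 and 11.49 (median 11.17) in the control group and between 11.23 and 11.57 (median 11.45) in the low-protein group, a difference of 0.24 ± 0.08 (SE, adjusted p = 0.0933). With the array set as a block 6 of the 16 rose and 1 fell, where 9.26% of all genes passed in either direction.

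Clock gene calls differed between the array sets. The clock list holds the core loop and its output factors, whose levels swing with time of day. Over all samples 1 of 19 passed, Tef (-0.77 ± 0.23 (SE, adjusted p = 0.0468)), not past the threshold in 10 of the 15 fits that left out 1 sample. The median was -0.30. Within set A alone 2 rose and 11 fell, with a median of -0.71, where 15.6% of all genes passed. Within set B alone 0 passed and the median was 0.04, where 4.72% of all genes passed. Arntl, the activator of the loop, lay between 5.41 and 6.12 in the 3 set A controls and between 7.92 and 8.02 in the 3 set A low-protein samples, a difference of 2.24 (adjusted p = 0.000106). Within set B its difference was 0.08 (adjusted p = 0.948). Dbp, an output gene in opposite phase to Arntl, gave -1.94 within set A (adjusted p = 0.000422) and -0.03 within set B (adjusted p = 0.983). Here and for Fasn, Pklr, Lipa, Cyp8b1, Hamp and Hspa5, the difference between the sets was not itself tested. Low-protein replicate 4, a set B sample, stood apart from its group. Its Arntl was 5.26 and its Per2 8.17, against 7.03 to 8.21 and 6.82 to 7.44 in the others. In set B, Arntl was 6.47 to 7.51 in controls and 7.03 to 8.21 in the other low-protein samples. Dbp was 7.85 to 9.27 and 7.10 to 9.20 in the same samples. The set B difference without replicate 4 was not tested. Within set B the mean of the clock list, relative to the series, ran from -0.05 to 0.13 in controls. In the low-protein samples of set B it ran from -0.40 to 0.69. The labels give no time of collection, and the part of clock state in the other results of either set was not tested.

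Markers of other cell types were followed because whole lobes were profiled. In bulk tissue fewer cells of a type and less RNA per cell cannot be told apart. Hepatocyte markers did not pass (0 of 10 in limma, 1 at an unadjusted p under 0.05, median -0.02), with Alb at 13.47 to 13.62 (median 13.53) in controls and 13.35 to 13.64 (median 13.48) in low-protein offspring. Of 15 stellate cell and fibroblast markers 3 rose, Acta2 (0.67 ± 0.17 (SE, adjusted p = 0.0134)), Lrat (0.53 ± 0.15 (SE, adjusted p = 0.0352)) and Reln (0.42 ± 0.12 (SE, adjusted p = 0.0368)), with a median of 0.25. Without control replicate 8, where 219 of all 13542 genes passed, 0 of these markers did. Their list means, relative to the series, were -0.55 to 0.03 in controls and -0.03 to 0.18 in low-protein samples. All 16 endothelial markers had differences above 0, with a median of 0.17 and 1 call, Cdh5 (0.34 ± 0.08 (SE, adjusted p = 0.0105)), not past the threshold without control replicate 8 (adjusted p = 0.0526). Of 8 erythroid genes Car2 (0.67 ± 0.13 (SE, adjusted p = 0.00118)) and Alas2 (0.84 ± 0.22 (SE, adjusted p = 0.0196)) rose, the second not past the threshold without low-protein replicate 1 (adjusted p = 0.0545). Kupffer cell markers gave 0 calls among 16 (1 at an unadjusted p under 0.05, median -0.03), with Clec4f at -0.04 (adjusted p = 0.923) beside the fall of Lilrb4a. The 6 granulocyte, 5 lymphocyte and 4 cholangiocyte markers tested gave 0 calls (2, 0 and 1 at an unadjusted p under 0.05). The part of these cell types in the rises of the cell cycle and fetal lists was not tested.

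**Figure D5:**
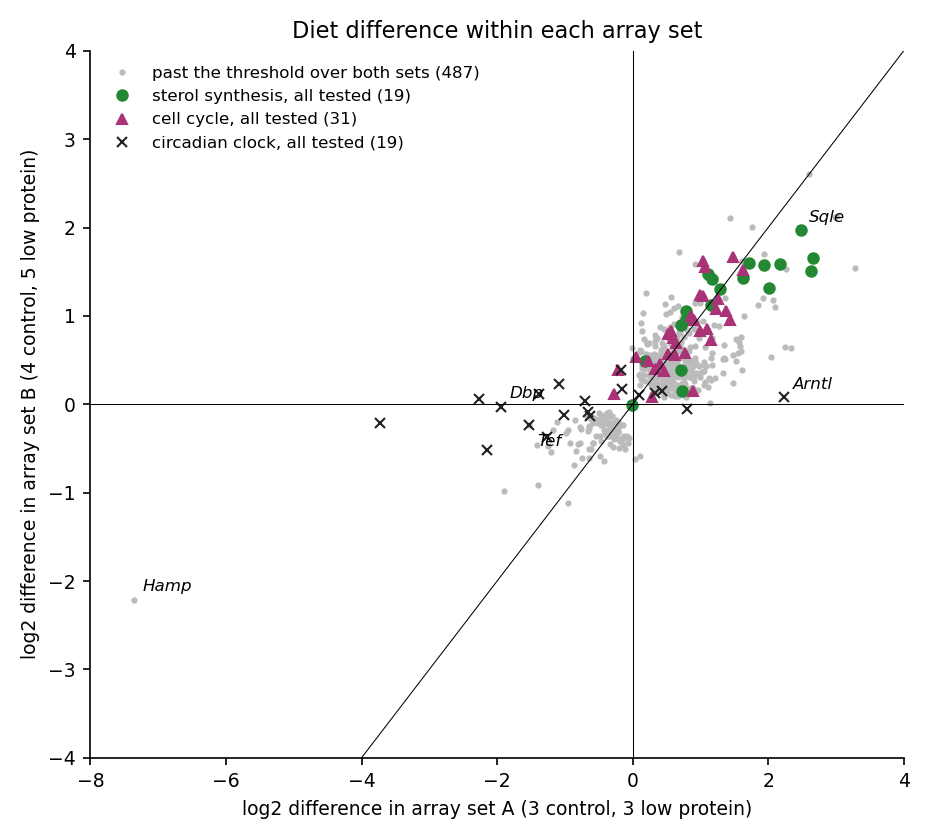
Each point is a gene, with its log2 difference in array set A on the x axis and within set B on the y axis; the line marks equal differences. Sterol genes lie to the upper right or near 0, clock genes spread along the set A axis with set B values near 0, and Hamp lies further from 0 within set A (-7.36) than within set B (-2.21).

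Over all 487 genes the direction was shared by the array sets more than the calls were. For 484 the sign was the same in both sets. Of the 377 that rose, 280 passed within set A alone and 165 within set B alone, and 94 passed in both; of the 110 that fell, 66, 41 and 14 did. Both sets contributed to the fit that chose these genes, so these counts describe the calls and do not test them.

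Positions relative to the rest of the series are given for the called genes. For 369 of the 377 genes that rose, the control mean lay below the means of all 4 ATF7+/- and ATF7+/+ groups, and for 109 of the 110 that fell it lay above all 4. The low-protein mean lay above all 4 for 244 of the genes that rose and below all 4 for 48 of those that fell. Over all genes tested, the control mean lay outside the range of the 4 groups for 55.9% and the low-protein mean for 39.7%. The choice of the genes by this contrast favours such positions, so they are a description with no test. Sqle, with group means of 7.54 and 9.75 in wild-type livers, had means of 8.86 to 9.73 in the other groups; Fabp5, at 7.86 and 10.45, had 9.70 to 10.46. Hamp, at 12.39 and 8.23, had 9.67 to 11.29.

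Diet differences in the other genotype labels come from other animals and are given side by side. Of the 377 genes that rose in wild-type livers, 132 had a difference above 0 in ATF7+/- livers and 297 in ATF7+/+ livers, with medians of -0.03 and 0.10 against 0.51 in wild-type. Of the 110 that fell, 48 and 82 had a difference below 0, with medians of 0.02 and -0.07 against -0.33. Over all genes tested 51.8% and 52.5% of differences were above 0 in those labels. The difference between genotype labels was not tested here.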

How the data were processed

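Liver RNA was labelled with biotin and hybridised to Affymetrix arrays, per the labels' protocols. The deposited log2 values, 1 per probe set, come from the authors' RMA run in Affymetrix Expression Console, as the submitters' processing notes name them; versions, and which arrays shared a run, are not given in the sources used here. They were used as deposited. RMA gives no detection call, so low levels have no floor. Precision is limited by how many arrays there are.

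Of 35556 probe sets, 21789 had 1 gene symbol in the platform's annotation, and 21698 of them matched RefSeq by Entrez ID. Those with a mean at or above the 40th percentile (5.46) were kept, and the probe set with the highest mean stood for its gene, which left 13542 genes. Pairs of arrays whose difference on variable genes was under 1.5 times that on stable genes (here 1.17 for control replicates 4 and 5; other wild-type pairs were above) were averaged. Array sets were split at the largest gap of principal component 1 over 5591 probe sets without a listed gene. Means of the 6 groups were fitted with limma 3.58.1 in R 4.3.3 (data.table, version 1.17.8), and the wild-type diet contrast was tested two-sided with Benjamini-Hochberg adjustment. The fit was tested on simulated data. Alternatives changed the filter, the normalization, the probe sets of a gene, the variance prior, array weights, the samples, the block and the Y-linked covariate; 2 combinations of array set with another choice were added after seeing the data.

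The comparison and the 37 gene lists were chosen with earlier results of these data known. Genes were named by rule: the 15 largest rises and the 15 largest falls, the 12 smallest p among genes past the threshold over all samples and in each array set, the key members of each list with up to 5 that passed, and Atf7. Promoter sequences are RefSeq's (GRCm38.p6), matched by symbol; 8 motifs were searched in 250 bases. Plots used matplotlib 3.10.9 (Python 3.11.15).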

Additional observations from a re-analysis of the deposited data

Results flagged for a closer look

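Of 336 groups of values examined (131 named genes and 37 list means, each in 2 groups), 30 had a highest or lowest sample far from the others by Dixon's test, where chance gives about 1 in 20. Control replicates 3 and 8 accounted for 8 each and control replicate 2 for 5. All values are log2.

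Control replicate 8 was lowest for Abcg8 (8.65), Lipa (10.32) and Gclc (10.21) and for the mean of the sterol efflux list (-0.458). It was highest for Cyp3a16 (5.75), Cyp3a13 (11.70), Hal (11.98) and the mean of the acute phase list (1.113). Control replicate 3 was lowest for Hamp (10.94) and Cyp7a1 (7.54). It was highest for Igf1 (11.49), Socs2 (10.83), Alas2 (9.07) and the means of the coagulation (0.173), erythroid (0.482) and lymphocyte (0.365) lists. Control replicate 2 was lowest for Acss2 (8.09), Khk (9.82), Cyp2e1 (12.58) and the mean of the triglyceride list (-0.289), and highest for Kif11 (7.02).

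In the low-protein group, replicate 4 stood apart for Arntl (5.26, lowest), Per2 (8.17, highest) and the mean of the clock list (0.692, highest). Replicate 3 was lowest for A330023F24Rik (5.40), Cyp2e1 (12.73) and Adgre1 (8.16). Replicate 5 was lowest for Cyp51 (9.53), replicate 2 for Msmo1 (9.99), and replicate 8 was highest for Acta2 (8.33).

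Probe sets outside the gene tests also differed. Of 5591 with no listed gene, 37 passed, 30 of them higher. Of 926 with several symbols, 4 passed: Dsg1a, Dsg1b and Dsg1c (-1.14), Loxl2 with Gm21451 (0.53) and a pair of histone probe sets with identical values (0.46).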

How the results depend on the processing

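The count of 487 genes became 139 in wild-type samples alone, 1254 with the array set as a block, 2118 in array set A alone and 1437 under that block plus the Y-linked covariate. Leaving out 1 sample gave 219 (without control replicate 8) to 589 (without control replicate 2). All other alternatives gave 379 to 716 genes. Several lists that held calls over all samples held 0 in wild-type samples alone. They were the triglyceride, gluconeogenesis, sterol efflux, apolipoprotein, amino acid breakdown, heat shock, NRF2, interferon, clock, iron, cytochrome P450 and endothelial lists. Set A holds 3 samples a group and set B 4 and 5, and each was fitted with its own spread; the cause of the differing counts was not tested. With the replicate block (the replicate number within each genotype label) 589 genes passed. Same-numbered samples had correlations of their deviations from -0.47 to 0.50 and often lay in different array sets, so the numbers were not taken as pairs. Of 37 list medians, 19 had the opposite sign in an array set and 11 in another alternative, as did 27 and 12 of the 55 named genes not past the threshold; the cause was not tested. Among them, Hspa5 was at 0.53 in set A, where it passed, and of lists that held calls and moved by more than their SD, the gluconeogenesis median was 0.25 and the clock median 0.036 in set B, and the interferon median -0.23 in set A. Of 76 named genes past the threshold, 76 kept their direction in all alternatives run, 27 passed in every alternative that tested them and 49 in every fit without 1 sample.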
